A study of Mus musculus with 6 samples.

Results

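The genes described here are 10 of the zinc-dependent histone deacetylases: Hdac1, Hdac2, Hdac3 and Hdac8 of class I, Hdac4, Hdac5, Hdac7 and Hdac9 of class IIa, Hdac6 of class IIb and Hdac11, the class IV enzyme. They were chosen by name from the 32067 rows of the deposited gene table, because a fatty acid of royal jelly has been reported in other work to inhibit enzymes of this kind. The rule uses no value measured here, although the genes were chosen with earlier results of these data known. All 10 were found and passed the filter on low counts. RNA was sequenced from the hippocampus of wild type female C57BL/6J mice aged 17 weeks. The ovaries, which make most of the circulating estrogen, had been removed from all mice. The 3 OVX mice ate a control diet from 8 weeks of age, and the 3 OVX+RJ mice ate one to which 1% royal jelly, the food that nurse honeybees secrete, had been added. Sham-operated mice are not analysed here, so neither group has intact ovaries.

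Histone deacetylases remove acetyl groups from lysines, and on histone tails this closes chromatin and lowers transcription. Class I enzymes are mostly nuclear and work inside corepressor complexes, while class IIa enzymes have weak activity of their own, bind the MEF2 transcription factors and leave the nucleus when they are phosphorylated. In hippocampus the family is known for limiting memory formation, and inhibitors of these enzymes improve memory in rodents. The table holds RNA levels only. It does not measure enzyme activity or acetylation, which an inhibitor would act on.

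None of the 10 genes passed the test between the OVX+RJ and OVX groups. edgeR's quasi-likelihood test, adjusted by Benjamini-Hochberg over 18629 genes, called 0 of the 10 at an adjusted p under 0.05, beside a background of 0% of all genes called. The smallest unadjusted p among them was 0.265, for Hdac1, so 0 of 10 were under 0.05, where the background was 4.05% of all genes. The groups overlapped in all 10, where 10.5% of all genes had groups that did not overlap. Values per library are CPM, counts scaled to the library's total over all rows. The log2 fold changes lay between -0.12 (Hdac7) and 0.028 (Hdac9), with a median of -0.045 against -0.0015 over all genes tested. With 1 library left out at a time, the median of the 10 lay between -0.058 (without OVX 3) and -0.020 (without OVX 1), and it was -0.027 without OVX+RJ 1. Of the 10 values 9 were below 0, where 50.4% of all genes were, but each of the 10 95% intervals (limma) covered 0. The lowest bound of those intervals was -22.9%, for Hdac7, and the highest was 21.1%, for Hdac8, so changes beyond these bounds lie outside all 10. The plot of CPM by library shows the overlap of the groups for each gene.

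**Figure D1:**
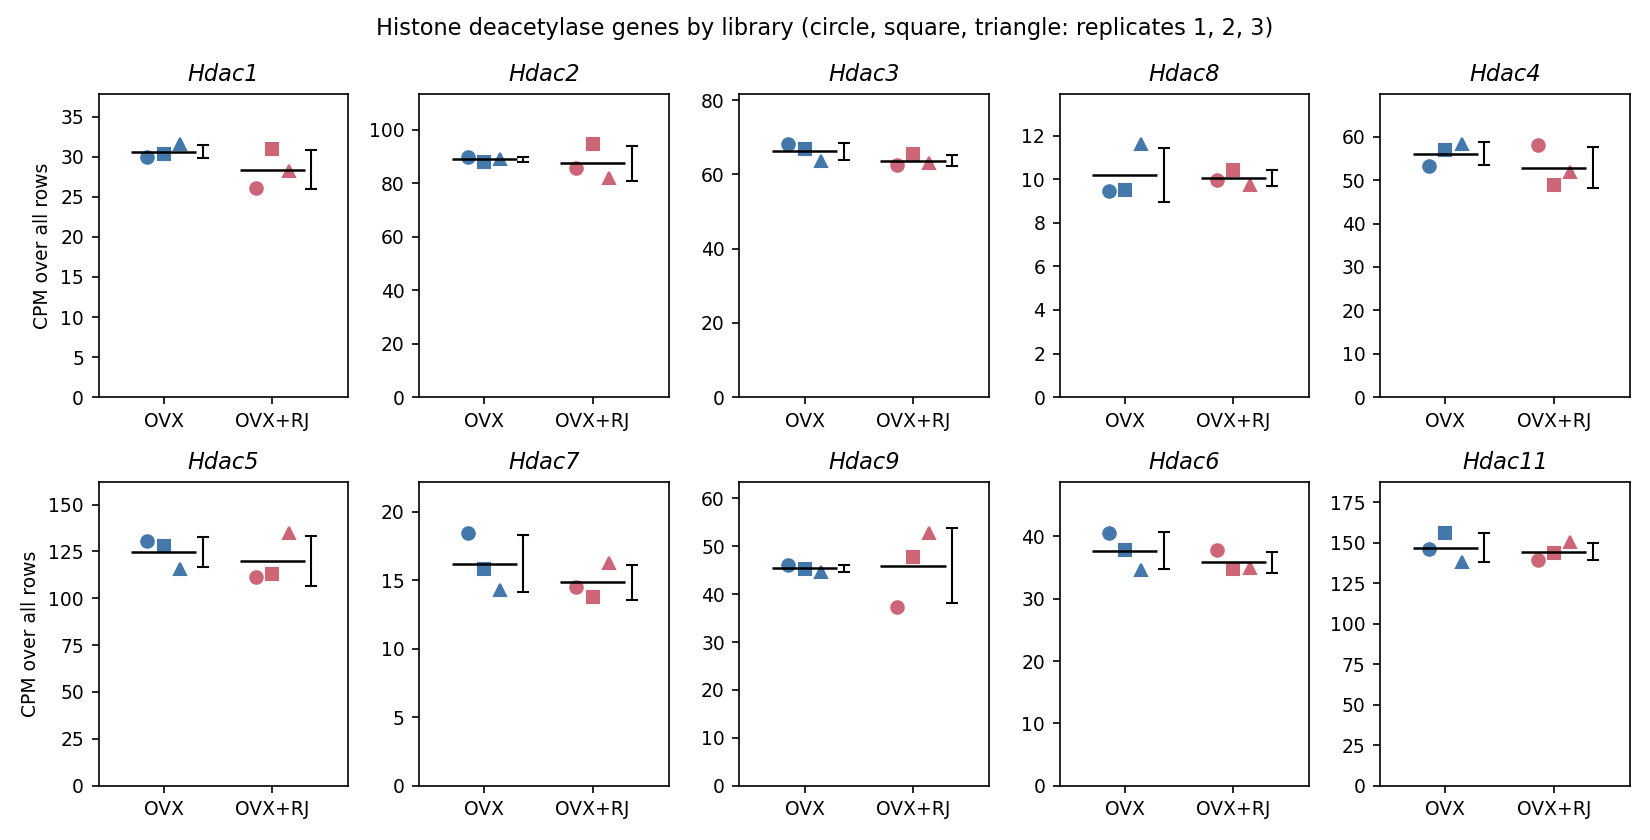
CPM over all rows of the table for each histone deacetylase gene, with 1 panel per gene and axes from 0. Points are libraries, horizontal lines are group means and bars are the SD of 3 libraries; the groups overlap in all 10 panels, and the Hdac9 points spread more for OVX+RJ (SD 7.85 CPM) than for OVX (SD 0.749 CPM).

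The libraries held between 34718596.5 and 58163785 counts. OVX+RJ 1 stood apart, with a mean correlation of 0.983 (Pearson, log2 CPM, taken across genes, which are not replicates) to the rest, where the other libraries had 0.986 to 0.987. It had the lowest CPM of the 6 libraries in 4 of the 10 genes and the highest in 0. The labelled tissue showed its markers, with a summed CPM of 4909 to 5429 for 4 pan-neuronal genes and of 243 to 398 for 5 dentate granule cell genes. Some sums varied widely within groups that overlapped. The dentate sum was 292 to 398 in OVX and 243 to 380.1 in OVX+RJ, with 0 of the 5 log2 fold changes above 0. Oligodendrocyte genes had 2949 to 4868 and 3554 to 4774, and choroid plexus genes 24.7 to 34.9 and 25.3 to 52.9. In a tissue of mixed cells, fewer cells of a type and less RNA per cell cannot be told apart. Of 14 marker lists the summed CPM did not overlap between groups in astrocytes, at 1402 to 1420 in OVX and 1308 to 1372 in OVX+RJ, and in pericytes and smooth muscle, at 172 to 180.4 and 154 to 161. Among single genes tested 10.5% had groups that did not overlap, and the sums were not tested. No marker was at 0 in every library. The part that cell makeup plays in the values below was not tested.

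Hdac1 and Hdac2 are the paired catalytic subunits of the Sin3, NuRD and CoREST complexes, and Hdac2 is the member best known for restraining memory genes in hippocampal neurons. Hdac2 read 89.8, 87.9 and 89.2 CPM in the mice OVX 1, 2 and 3, and it read 85.8, 94.7 and 81.9 CPM in OVX+RJ 1, 2 and 3, the order kept for all genes below. The OVX values sat inside the wider OVX+RJ range. Its means were 89.0 ± 0.963 CPM in OVX and 87.5 ± 6.57 CPM in OVX+RJ (SD, n = 3 each). The log2 fold change was -0.013 (SE 0.069) with an adjusted p of 0.991 in edgeR, and the 95% interval ran from -10.9% to 9.78%. Hdac1 read 30.0, 30.3 and 31.6 CPM in the OVX mice and 26.1, 30.9 and 28.2 CPM in the OVX+RJ mice. OVX+RJ 1 and 3 lay under all OVX libraries, and OVX+RJ 2 lay between OVX 2 and OVX 3. Its log2 fold change was -0.099 (SE 0.086) with an adjusted p of 0.986. It was -0.051 once OVX+RJ 1 was left out, and -0.16 without OVX+RJ 2. Within each library Hdac2 had between 2.83 and 3.29 times the counts of Hdac1, with overlapping groups (2.91 ± 0.0832 in OVX and 3.08 ± 0.195 in OVX+RJ, SD, n = 3 each). The row of Hdac1-ps, a pseudogene of Hdac1, held between 5.39% and 8.84% as many counts as Hdac1, so some reads may have been split between the rows.

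Hdac3, the catalytic subunit of the NCoR corepressor complex, read 68.2, 66.9 and 63.6 CPM in the OVX mice and 62.6, 65.4 and 63.2 CPM in the OVX+RJ mice. It had the smallest spread of the family, with a within-group SD of 0.037 on the log2 scale against a median of 0.16 over all genes tested, whatever their level. The difference on the log2 scale was -0.044 (SE 0.065), with an adjusted p of 0.986 and an interval from -12.1% to 7.03%. Hdac8 acts on SMC3 of the cohesin ring and was the class I gene with the fewest counts, between 328 and 554 per library. It read 9.45, 9.52 and 11.6 CPM in the OVX mice and 9.95, 10.4 and 9.75 CPM in the OVX+RJ mice. OVX 3 was the highest of the 6 libraries, and the OVX+RJ values lay between the OVX values. A log2 fold change of -0.0093 (SE 0.13) came with an adjusted p of 0.995.

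Class IIa genes carry the link to neuronal activity, since calcium-dependent kinases drive their proteins out of the nucleus. Hdac5, the most abundant of the 4 in CPM, read 130.5, 128 and 115 CPM in the OVX mice and 111, 113 and 135 CPM in the OVX+RJ mice. OVX+RJ 3 was the highest library and OVX+RJ 1 the lowest. The log2 fold change was -0.046 (SE 0.081), with an adjusted p of 0.986. Hdac4 read 53.2, 56.9 and 58.3 CPM in the OVX mice and 58.1, 48.8 and 51.9 CPM in the OVX+RJ mice. Here OVX+RJ 1 was near the top of the OVX range and the other OVX+RJ libraries lay below it. The log2 fold change was -0.073 (SE 0.087) with all libraries, and -0.16 without OVX+RJ 1 at an unadjusted p of 0.0574 and an adjusted p of 0.978. It shrank to -0.011 without OVX+RJ 2 (unadjusted p 0.904, adjusted p 0.988 in edgeR) and to -0.039 without OVX 3.

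Hdac9, which also makes a short form without the catalytic domain, read 46.1, 45.3 and 44.6 CPM in the OVX mice and 37.4, 47.7 and 52.8 CPM in the OVX+RJ mice. OVX+RJ 1 was below all OVX libraries and the other OVX+RJ libraries were above all of them. Its log2 fold change was 0.028 (SE 0.11) with all libraries and 0.15 without OVX+RJ 1, at an unadjusted p of 0.0672 and an adjusted p of 0.978. Without OVX+RJ 3 it was -0.077. Its within-group SD of 0.17 on the log2 scale was the largest of the 10 and near the median of all genes, and the other 9 members were below that median. The members' levels stood between the 46.2 (Hdac8) and 92.4 (Hdac11) percentiles of all genes tested. Their spread was not compared with that of genes of like level. Hdac7, studied mostly in vessels and lymphocytes, read 18.5, 15.8 and 14.3 CPM in the OVX mice and 14.5, 13.8 and 16.2 CPM in the OVX+RJ mice. The ranges overlapped, with OVX 1 the highest library. Its log2 fold change of -0.12 (SE 0.12) was the largest in size of the family, with an adjusted p of 0.986, and it ran from -0.19 without OVX 3 to -0.019 without OVX 1. Counts of Hdac5 were between 1.92 and 2.60 times those of Hdac4 in a library, and counts of Hdac9 between 0.644 and 1.02 times. Both ratios were lowest in OVX+RJ 1 and highest in OVX+RJ 3.

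**Figure D2:**
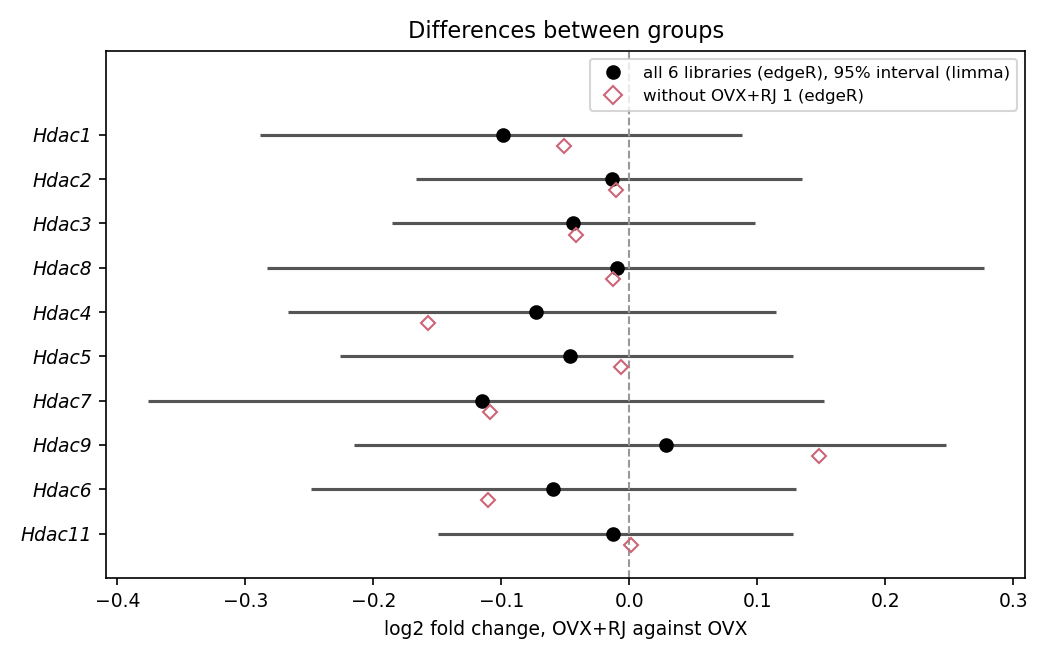
Log2 fold change of each gene, OVX+RJ against OVX, from edgeR with all 6 libraries (filled circles) with limma's 95% interval (lines), and from edgeR without OVX+RJ 1 (open diamonds). All 10 intervals cover 0, and Hdac9 moves from 0.028 to 0.15 and Hdac4 from -0.073 to -0.16 when that library is left out.

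The bases before the outermost start sites of Hdac5 and Hdac9 are shown. Of these class IIa genes 1 was the most abundant in CPM and the other the most variable between libraries, and the stretches printed differ in kind. The 140 bases before the outermost RefSeq start of each gene (build GRCm38.p6, minus strand) are written from 5′ to 3′ and end at the base before the start. Capitals mark matches on either strand to a GC box (the letters GGGCGG), to the CCAAT box, to a TATA box (searched as TATAAA) or to the MEF2 consensus, whose middle bases are each A or T. No matches overlap here.
Hdac5 (chr11:102230173-102230312): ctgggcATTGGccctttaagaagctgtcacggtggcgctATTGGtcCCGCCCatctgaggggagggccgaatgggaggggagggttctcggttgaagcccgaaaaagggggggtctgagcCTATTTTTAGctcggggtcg
Hdac9 (chr12:34917096-34917235): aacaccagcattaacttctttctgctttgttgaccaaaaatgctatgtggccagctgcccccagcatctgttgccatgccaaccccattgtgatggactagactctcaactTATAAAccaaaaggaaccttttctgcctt
The Hdac5 stretch holds 8 CpG dinucleotides and the Hdac9 stretch 0. Another Hdac9 window of 300 bases, at a different RefSeq start, holds 3 CpG dinucleotides and none of the marked boxes. Which start is used in these mice is not known. The MEF2 consensus was in 0.557% of 32841 RefSeq promoter windows of 300 bases, a GC box in 35.7%, a CCAAT box in 37.4% and a TATA box in 13.6%. Of the members 8 had such windows, 12 in all, and the MEF2 consensus was in that of Hdac5 only. A match is a string of letters and not a measured binding site, and no factor or start site was measured here.

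Hdac6 works mainly in the cytoplasm, where it removes acetyl groups from tubulin. It read 40.6, 37.8 and 34.7 CPM in the OVX mice and 37.8, 34.8 and 35.0 CPM in the OVX+RJ mice, and the OVX+RJ values lay within the OVX range. The log2 fold change was -0.060 (SE 0.086), with an adjusted p of 0.986. It ran from -0.11 without OVX+RJ 1 to -0.0093 without OVX 1. Hdac10, the other class IIb gene, was not among the chosen genes, and its row gave 8.55 ± 0.392 CPM in OVX and 8.08 ± 0.968 CPM in OVX+RJ (SD, n = 3 each) with overlapping groups. Hdac11, which removes long fatty acyl groups from lysines and is strongly expressed in brain, had the highest CPM of the family. It read 146, 156 and 138 CPM in the OVX mice and 139, 144 and 150.3 CPM in the OVX+RJ mice, again inside the OVX range. Between the groups it differed by -0.013 on the log2 scale (SE 0.063), with an adjusted p of 0.990 and an interval from -9.86% to 9.25%.

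Per kb of transcript, the scale on which genes can be compared, the order of levels was Hdac11, Hdac2, Hdac5, Hdac3, Hdac1, Hdac6, Hdac4, Hdac9, Hdac8 and Hdac7. Hdac11 had 54.9 ± 2.57 CPM per kb over the 6 libraries and Hdac7 had 3.67 ± 0.409 CPM per kb (SD), a ratio of 14.9 that became 29.6 with the median transcript length and 25.4 with the coding length. Hdac2 had 44.0 ± 2.14 CPM per kb, and each of its libraries was below each library of Hdac11. Hdac5 and Hdac3, at 32.2 ± 2.69 and 32.0 ± 1.10 CPM per kb, could not be ordered. Nor could Hdac9, at 5.75 ± 0.630 CPM per kb, be ordered against Hdac4 at 6.73 ± 0.474 or Hdac8 at 5.23 ± 0.419. Each library of Hdac4 was just above each library of Hdac8, with a lowest value of 6.03 against a highest of 5.996 CPM per kb. Hdac1, at 14.5 ± 0.995 CPM per kb, and Hdac6, at 8.88 ± 0.576 CPM per kb, each stood clear of their neighbours. Lengths are those of the principal GENCODE transcript, between 1.936 kb for Hdac8 and 8.1 kb for Hdac4. The largest exon overlaps with genes on the opposite strand were 3536 bases for Hdac4 (with Gm26720) and 594 bases for Hdac11 (with Gm44002). Their part in these levels was not tested. With the longest or the median transcript or the coding length, Hdac11 stayed first, Hdac8 ninth and Hdac7 last, while each of the others changed rank at least once, such as Hdac4 from rank 7 to rank 5 with the median length. Class I genes made up 46.1 ± 1.36% of the family's summed CPM per kb in OVX and 46.0 ± 2.31% in OVX+RJ, and class IIa genes 23.4 ± 0.542% and 23.2 ± 1.83% (SD, n = 3 each). The summed CPM of the 10 genes was 623 ± 18.5 in OVX and 603 ± 20.7 in OVX+RJ, with overlapping groups.

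**Figure D3:**
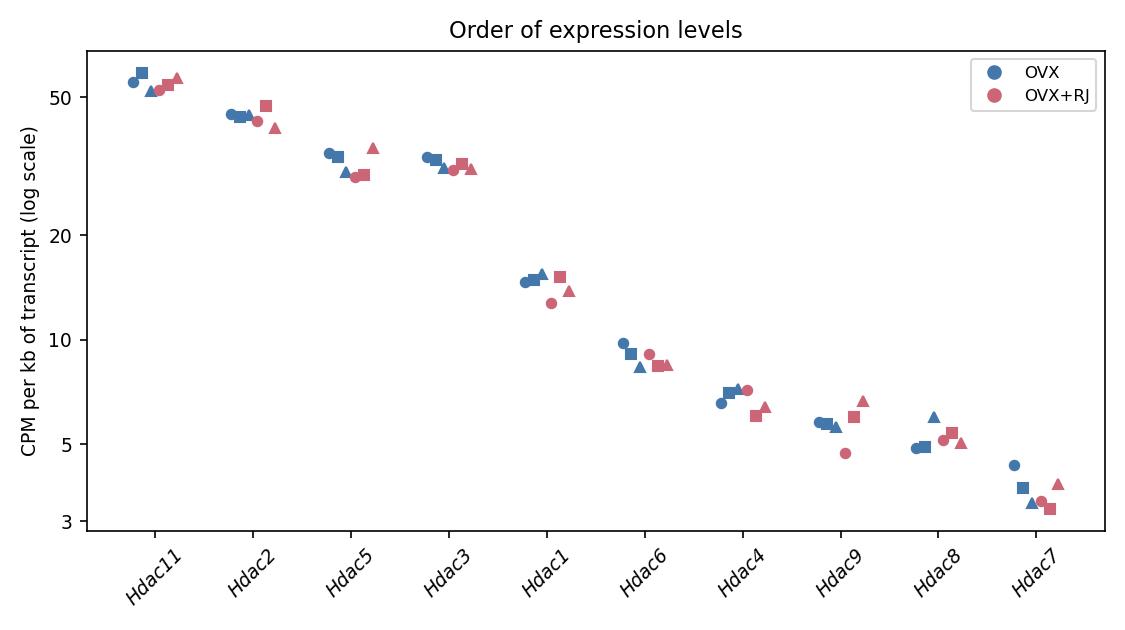
CPM per kb of the principal transcript (log axis) for each histone deacetylase gene, ordered by its mean, with 1 point per library. Hdac11 is highest at a mean of 54.9 and Hdac7 lowest at 3.67, and the ranges of OVX and OVX+RJ overlap for each gene.

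The partners of these enzymes were read from 12 lists of 90 genes, of which 89 were tested (Mef2b was under the filter). edgeR called 0 of them. The lists were chosen with earlier results of these data known, so the shares below describe the lists and are not a test. At an unadjusted p under 0.05 there were 5 higher and 1 lower, 6.74% of the 89 against 4.05% of all genes, and groups did not overlap in 12.4% against 10.5%. Without OVX+RJ 1 the share was 4.49% of the 89 against 4.53% of all genes: Sik1, Rest, Txnip and Arid4b. Leaving out 1 OVX library gave 5.62% of the 89 each time, against 3.26% to 3.39% of all genes. The share of the 89 was 7.87% without OVX+RJ 2 or without OVX+RJ 3, against 5.88% and 4.49% of all genes. In OVX+RJ 1 the 5 higher genes each had their highest value of the 6 and the lower gene, Sin3b, its lowest.

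Corepressor subunits showed small differences in both directions, and several list medians changed sign when 1 library was left out. Of 12 NuRD partners 8 were above and 4 below 0, with a median log2 fold change of 0.021. Without OVX+RJ 1 the NuRD counts turned to 5 above and 7 below (median -0.013), and without OVX+RJ 3 the median was 0.057. Of 12 Sin3 partners 7 were above and 5 below (median 0.021, from -0.013 without OVX 1 to 0.038 without OVX 2). Groups did not overlap in 33.3% of the NuRD partners (2 higher and 2 lower) and 8.33% of the Sin3 partners, against 10.5% of all genes. No NuRD partner was at an unadjusted p under 0.05 in edgeR. Chd4, the remodelling ATPase of NuRD, was 218 ± 5.40 CPM in OVX and 229 ± 5.03 CPM in OVX+RJ (SD, n = 3 each). Its groups did not overlap, and the log2 fold change was 0.087 (SE 0.055, adjusted p 0.986 in edgeR). Sin3b, a scaffold of the Sin3 complex, read 82.5, 82.5 and 80.5 CPM in the OVX mice and 63.1, 78.0 and 71.5 CPM in the OVX+RJ mice. Each OVX+RJ library was below each OVX library, and the log2 fold change was -0.20 (SE 0.076, adjusted p 0.986). It ran from -0.27 without OVX+RJ 2 to -0.13 without OVX+RJ 1. Of 4 NCoR partners 2 were above and 2 below 0 (median 0.018, from -0.0041 without OVX 2 to 0.064 without OVX 1). Tbl1xr1, a subunit of that complex, was 93.3 ± 4.88 CPM in OVX and 103 ± 4.57 CPM in OVX+RJ (SD, n = 3 each). Its groups did not overlap, and the log2 fold change was 0.15 (SE 0.069, adjusted p 0.986).

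Of 8 CoREST and REST partners 4 were above and 4 below 0 (median 0.0082, from -0.013 without OVX+RJ 2 to 0.039 without OVX 3). Rest, the repressor that recruits deacetylases to neuronal genes, read 6.91, 6.40 and 6.85 CPM in the OVX mice and 10.2, 8.18 and 8.40 CPM in the OVX+RJ mice. Its groups did not overlap, and the log2 fold change was 0.43 (SE 0.14, unadjusted p 0.0142, adjusted p 0.986). It ran from 0.30 without OVX+RJ 1 to 0.49 without OVX+RJ 2. Mideas, the scaffold of the mitotic deacetylase complex, was 35.2 ± 2.59 CPM in OVX and 42.5 ± 7.09 CPM in OVX+RJ. Its groups overlapped, and its log2 fold change was 0.29, from 0.13 without OVX+RJ 1 to 0.39 without OVX+RJ 3. Of the 3 genes of its list 2 were above 0 (median 0.11, from 0.034 without OVX+RJ 1 to 0.18 without OVX+RJ 3).

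Genes that act on class IIa enzymes were led by Sik1, an activity-induced kinase that phosphorylates them. It read 8.30, 6.57 and 8.37 CPM in the OVX mice and 18.8, 9.02 and 11.7 CPM in the OVX+RJ mice. Its groups did not overlap, and the log2 fold change was 0.79 (SE 0.23, unadjusted p 0.00678, adjusted p 0.986). It ran from 0.42 without OVX+RJ 1 to 1.00 without OVX+RJ 2. Of 11 kinases 7 were above and 4 below 0 (median 0.077, or 0.044 without OVX+RJ 1). Of 6 tested MEF2 factors and cofactors 2 were above and 4 below (median -0.028, or 0.016 without OVX 3), with Mef2a at 243 ± 8.85 CPM in OVX and 255 ± 14.1 CPM in OVX+RJ. The 14-3-3 genes, which hold phosphorylated class IIa proteins in the cytoplasm, had 6 of 7 above 0 with a median of 0.019, but 4 above and 3 below without OVX+RJ 1 (median 0.0050) or without OVX 1 (0.0016). Without OVX 2 their median was 0.052, and Ywhaq was 348 ± 26.1 CPM with all OVX mice and 362 ± 12.9 CPM with all OVX+RJ mice.

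The opposing enzymes and the readers of acetyl-lysine had medians near 0. Of 12 histone acetyltransferases 7 were above and 5 below 0 (median 0.015, from 0.0085 without OVX 3 to 0.030 without OVX+RJ 2), with Ep300 at 69.1 ± 2.23 CPM in OVX and 73.5 ± 3.54 CPM in OVX+RJ. Of 3 BET readers 2 were above 0 (median 0.051, from 0.010 without OVX+RJ 1 to 0.087 without OVX+RJ 3), with Brd2 at 171 ± 4.03 and 180.3 ± 19.7 CPM. Of 6 non-histone substrates 3 were above and 3 below 0 (median -0.0016, from -0.022 without OVX 1 to 0.039 without OVX 2), with Shmt2, a substrate of Hdac11, at 14.5 ± 0.965 and 12.7 ± 1.23 CPM (SD, n = 3 each).

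Genes that deacetylase inhibitors induce in other work were 5 in number, and 4 were above 0 (median 0.040, from 0.024 without OVX+RJ 1 to 0.13 without OVX 2). H1f0, a linker histone that rises with many such inhibitors, was 102 ± 4.97 CPM in OVX and 103 ± 8.09 CPM in OVX+RJ (SD, n = 3 each). The log2 fold change was 0.032 (SE 0.076), or -0.047 without OVX+RJ 1. Txnip, an inhibitor of thioredoxin, read 20.2, 16.4 and 20.1 CPM in the OVX mice and 34.0, 23.9 and 22.3 CPM in the OVX+RJ mice. Its groups did not overlap, and the log2 fold change was 0.52 (SE 0.16, unadjusted p 0.00787, adjusted p 0.986). It ran from 0.29 without OVX+RJ 1 to 0.64 without OVX+RJ 3. Cdkn1a, a cell cycle inhibitor gene, was 3.89 ± 0.410 CPM in OVX and 5.82 ± 1.29 CPM in OVX+RJ, and its groups did not overlap. Its log2 fold change was 0.60 (SE 0.19, adjusted p 0.986), from 0.39 without OVX+RJ 1 to 0.71 without OVX+RJ 2. Both genes also respond to many other signals, including glucocorticoids, and what lay behind their values was not tested.

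**Figure D4:**
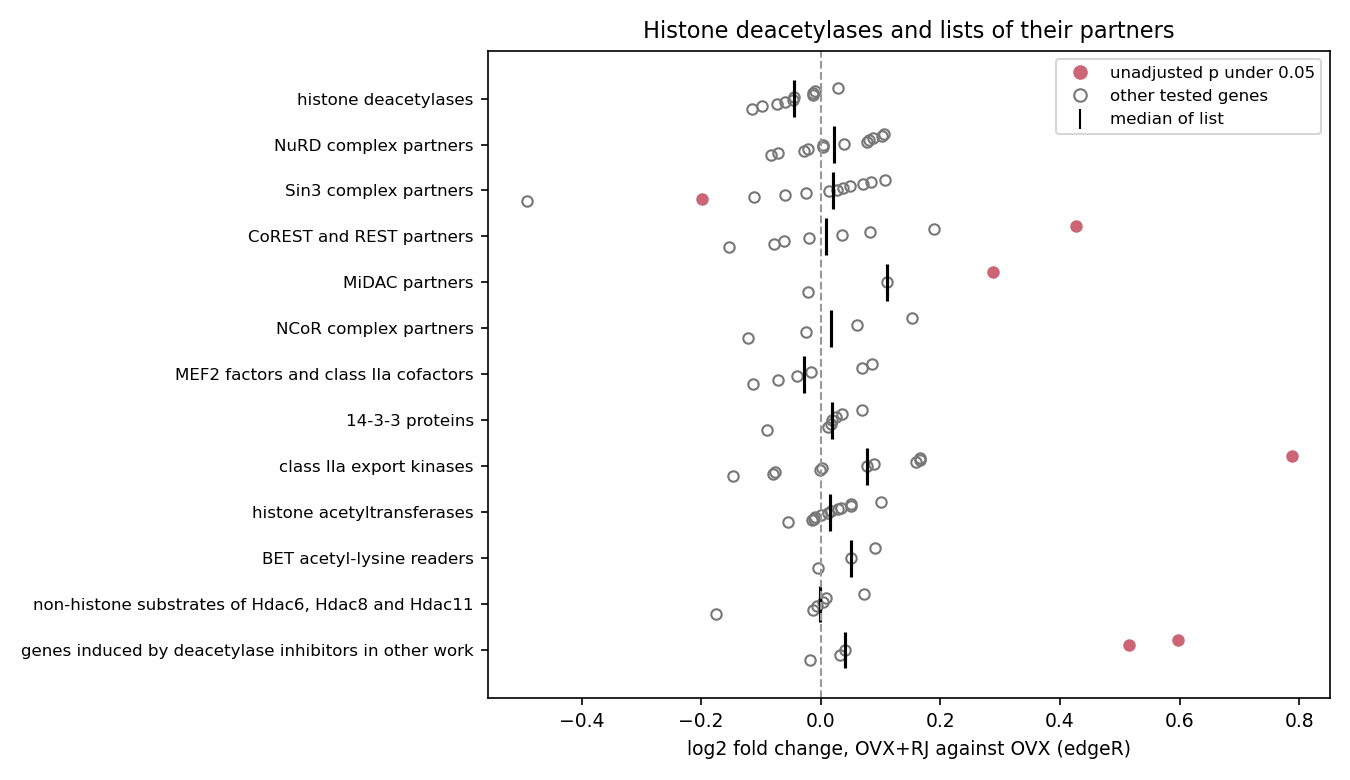
Log2 fold change (edgeR, OVX+RJ against OVX) of each tested gene in the histone deacetylase family and in 12 lists of partners, with the median of each list as a vertical bar and genes at an unadjusted p under 0.05 filled. All 10 deacetylases lie between -0.12 and 0.028, and the filled genes with the largest values are Sik1 at 0.79, Cdkn1a at 0.60 and Txnip at 0.52.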

How the data were processed

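Poly(A) RNA libraries were made with a directional kit, per the labels' protocols. Per the submitters' processing notes, the tools were StringTie 2.2.1, HISAT2 2.2.1, fastp 0.23.4 and bcl2fastq 2.19 and the build was GRCm39, with no roles stated. How strand and multiply aligned reads were handled is not given in the sources used here, nor is the annotation. The deposited table holds expected counts per gene symbol, not scaled between libraries. Values at 51 rows were not whole, and all were rounded.

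The test was edgeR 4.0.16 in R 4.3.3: filterByExpr, TMM factors (0.978 to 1.01), glmQLFit and glmQLFTest, and Benjamini-Hochberg adjustment over 18629 genes. CPM values use library totals over all rows. Standard errors and 95% intervals are from limma 3.58.1 on log2 CPM (prior count 2). An exact permutation test of 3 against 3 cannot reach 0.05 and was not used. The test was checked on simulated counts. Alternatives were DESeq2 1.42.0, limma-voom, other scalings and filters, robust empirical Bayes, the replicate block and each library left out.

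The members, lists and tests were chosen with earlier results of these data known. All members are named. Of each list of partners up to 3 genes with the lowest p could be named, and Arid4b was named after its value was seen. One gene of these lists is not reported here and is left out of their counts. Transcript lengths are from GENCODE M21 (GRCm38), matched by symbol for all 10 members, and promoter sequences from RefSeq (GRCm38.p6), so coordinates are not those of the files' build. Per the labels each library is a biological replicate.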

Additional observations from a re-analysis of the deposited data

How the results depend on the processing

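No member was called under any of the 15 alternatives, and 0 of 10 were at an unadjusted p under 0.05 in each. Hdac1, Hdac3, Hdac4, Hdac6 and Hdac7 kept a negative log2 fold change in all 15, and the other 5 changed sign at least once. Hdac3 ran from -0.067 without OVX 3 to -0.028 without OVX 1. With each library left out in turn, log2 fold changes ran from -0.067 to 0.037 for Hdac2 (above 0 without OVX+RJ 3), from -0.064 to 0.10 for Hdac8 (above 0 without OVX 3, and at 0.017 without OVX+RJ 3), from -0.13 to 0.0010 for Hdac5 (above 0 without OVX+RJ 2), from -0.077 to 0.15 for Hdac9 (below 0 without OVX+RJ 3) and from -0.050 to 0.037 for Hdac11 (above 0 without OVX 2, and at 0.0016 without OVX+RJ 1). Hdac8 was at 0.0027 in limma-voom. Brd2 ran from -0.016 to 0.15 and H1f0 from -0.047 to 0.073, both below 0 without OVX+RJ 1. Over all genes, where the main test called 0 (754 at an unadjusted p under 0.05), DESeq2 called 10 higher and 2 lower, robust empirical Bayes 2 higher and 1 lower, and limma-voom 0. With 1 library left out, 0 to 7 genes were called higher and 0 to 1 lower. The replicate block gave 1 gene called higher. Same-numbered libraries had correlations of deviations of 0.046, -0.0024 and 0.0031. The labels name no pairing of the mice, and with 3 libraries per group these values cannot exclude one. The members had 328 to 9085 counts per library, and Hdac8, with the fewest, had the largest standard error (0.13).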
